A study of Caenorhabditis elegans with 2 samples.

Results

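Divergent promoters are stretches of DNA from which a pair of neighbouring protein-coding genes is read in opposite directions, one from the plus and one from the minus strand. The peaks described here are those of UNC-130, which in Caenorhabditis elegans is one of the forkhead family of transcription factors, whose summit lay in the promoter windows of at least 1 protein-coding gene on each strand. Each promoter window covered the 1000 bp before an annotated 5' end and the 200 bp after it, and summits within 500 bp of a tRNA 5' end were left out. Of 1648 peaks on the nuclear chromosomes, 448 met this rule, or 27.2% with a 95% Wilson interval of 25.1 to 29.4%. The other peaks comprised 600 in the windows of genes on 1 strand, here called one-direction promoters, 381 away from coding promoters and tRNA genes, and 219 near a tRNA gene. The rule used the position of the summit and the annotation, not the signal. The intervals given here cover counting error over peaks or genes only.

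The data were ChIP-seq peak lists from 2 biological replicates that form 1 group, so the study had no second condition and no test between conditions was possible. Whole hermaphrodite L4 larvae of strain AGK541 were collected 48 h after synchronization as starved L1 larvae, and the immunoprecipitation used anti-GFP, although one label field names the antibody by its target, unc-130. The strain carries armSi1 on chromosome II, in which the mex-5 promoter drives UNC-130 fused to GFP followed by the tbb-2 3' UTR, with cb-unc-119(+) as the marker, in a background of unc-119(ed3) on III and niDf199 on IV. The tag is given as GFP-FLAG, eGFP or GFP in different label fields. The mex-5 promoter is known as a germline promoter, so the peaks show where this fusion protein was recovered, which need not be where the native gene places the factor. The insertion thus adds a further copy of that promoter, which touches 1 of the peaks described. Whole animals were used, so the cells that gave each peak cannot be told apart. Reads per replicate are not in the lists and the depth is unknown.

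Forkhead proteins bind DNA through a winged-helix domain that recognises a core of AAACA. UNC-130 is known from C. elegans for its roles in neuronal lineages and in the migration of the distal tip cells of the gonad. In this compact genome many neighbouring genes stand head to head, so that one short intergenic stretch can hold the promoters of both. Most C. elegans messages are trans-spliced to a leader RNA, and an annotated 5' end can therefore lie downstream of the place where transcription starts.

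The sequence at the summit is shown for the 6 peaks of highest signal, because these lead the ranking by signal in the IDR list. Each line gives 30 bases of the plus strand of ce11, the UCSC name of WBcel235, from RefSeq, read from 5' to 3', and the capital marks the summit base.
K01G5.10/tasp-1: acacttctcatacacTccgccacaacacgc
rpl-15/K11H12.8: ttcgcatacactcgaAacacgctccacaat
prp-19/K10D2.5: tgagaattcgaaaaaCtgcagtggagcgta
rps-23/dpm-3: aggtagcctgcacatCaaactcgtggccgc
rpl-20/Y17G9B.5: ttgcgtgttctattaCcgtatccttcatac
cux-7/C07H6.2: gacgaggaatgaattTggattctaggccat
These stretches lie at chrIII:10759223-10759252 for K01G5.10/tasp-1, chrIV:654905-654934 for rpl-15/K11H12.8, chrIII:5172655-5172684 for prp-19/K10D2.5, chrIV:12391318-12391347 for rps-23/dpm-3, chrIV:4750062-4750091 for rpl-20/Y17G9B.5 and chrIII:7520836-7520865 for cux-7/C07H6.2. The first name of each pair is the minus-strand gene and the second the plus-strand gene. None of the 6 stretches was chosen for a word it holds.

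The highest divergent-promoter peak lay between K01G5.10 and tasp-1, which encodes a threonine aspartase, a protease of the taspase family. The authors' signal value, of unstated scale, was 239.1 in replicate 1, 322.6 in replicate 2 and 561.6 in the IDR list over both. The summit stood 69 bp upstream of tasp-1 and 716 bp upstream of K01G5.10, and both replicates placed it nearer tasp-1.

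The next peaks stood beside ribosomal protein genes and a splicing gene. Between rpl-15, a protein of the large ribosomal subunit, and K11H12.8 the signal was 169.4 in replicate 1, 270.5 in replicate 2 and 435.4 in the IDR list. This summit was 344 bp upstream of rpl-15 and 470 bp upstream of K11H12.8. Between prp-19, a core splicing factor, and K10D2.5 the signal was 144.6, 240.2 and 384.4 in the same order, with the summit 50 bp from K10D2.5 and 625 bp from prp-19. Both pairs, ranked by the signal over both replicates, were high in each replicate. The first had its summit in the inner part of the gap and the second had its summit at one end. The peak between rps-23, of the small ribosomal subunit, and dpm-3, a subunit of dolichol phosphate mannose synthase, reached 125.4, 242.6 and 369.4. The peak between rpl-20 and Y17G9B.5 reached 111.7, 208.1 and 321.8.

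Among the 25 highest peaks the signal ranged from 79.9 to 239.1 in replicate 1 and from 121 to 322.6 in replicate 2, and from 230.1 to 561.6 in the IDR list. Replicate 2 was the higher in 25 of 25 of these peaks and in 417 of the 446 peaks matched in both replicates. The lists do not say whether the replicates share a scale, so this difference was not read further. The summit lay between both 5' ends in 24 of the 25, and both replicates named the same nearer gene in 23. The 2 exceptions were drr-2/set-16, with the 5' ends 165 and 181 bp away, and ears-2/uncp-18, with the 5' ends 40 and 52 bp away. The gene set-16 encodes a histone H3 lysine 4 methyltransferase of the MLL family, and ears-2 a mitochondrial glutamyl-tRNA synthetase. Of the 25 peaks, 5 had a cytosolic ribosomal protein gene of the list described below in the pair, against 31 of all 448 (6.92%).

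Of the 25 peaks, 3 had a gene of the cell cycle and spindle list in the pair (klp-16, knl-1 and lin-35), against 26 of all 448 (5.80%). Between C02F5.10 and knl-1, a kinetochore scaffold protein, the signal was 96.7 in replicate 1, 150.3 in replicate 2 and 247.1 in the IDR list. Beside hcp-6, a condensin II subunit on none of the lists, which shares its promoter with let-630, it was 98.3, 146.9 and 248.4. The peak shared by vps-51, a tethering factor of membrane trafficking, and lin-35, the worm retinoblastoma protein, gave 102.9, 134.5 and 239.8, with the 5' ends 224 and 194 bp away. The 3 peaks had similar values in each replicate. The peak between smn-1, the survival motor neuron protein of small nuclear RNP assembly, and the kinesin gene klp-16 gave 90.0, 157.9 and 248.8. Its summit fell inside the microRNA gene cel-mir-4932.

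**Figure D1:**
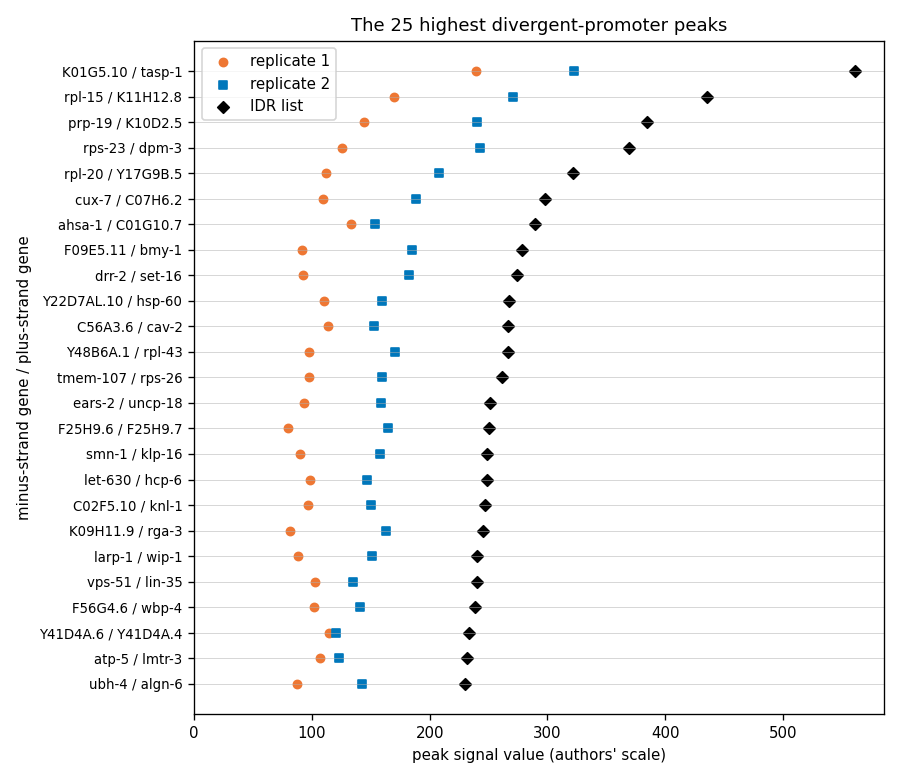
Signal value of the peak in the authors' scale (horizontal axis) for the 25 divergent-promoter peaks of highest signal, one line for each gene pair. Circles are replicate 1, squares replicate 2 and diamonds the IDR list over both replicates; K01G5.10/tasp-1 was highest in each of them.

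Over all 448 peaks the signal in the IDR list had a median of 99.6, quartiles of 75.5 and 144, and a range of 58.8 to 561.6. The median was 40.3 in replicate 1 and 62.0 in replicate 2. The lowest member, between hpr-17 and F32A11.1, gave 18.4 in replicate 1, 42.4 in replicate 2 and 58.8 in the IDR list. Next above it stood orc-5/cyb-1, a subunit of the origin recognition complex beside a cyclin B, with 20.1, 39.3 and 59.0. In both replicates these lowest members lay far below the 25 highest, which follows in part from the ranking by the signal over both. A summit within 200 bp was found in the relaxed list of replicate 1 for 446 peaks and in that of replicate 2 for 448. Weak entries of these relaxed lists can be background. When each replicate's list was cut to its own 1667 highest entries, 384 peaks (85.7%) were matched in replicate 1, 422 (94.2%) in replicate 2 and 361 (80.6%) in both. Across the 446 peaks matched in both, Spearman's rank correlation of the signals was 0.759, a description over peaks that share their libraries and control.

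Divergent-promoter peaks had a higher median signal than one-direction promoter peaks. The medians were 99.6 and 87.6 in the IDR list, 40.3 and 35.2 in replicate 1, and 62.0 and 54.1 in replicate 2. The ratio of the medians was 1.14 in the IDR list and 1.15 in each replicate. The quartiles overlapped broadly, at 75.5 to 144 against 70.3 to 125. Peaks away from coding promoters had a median of 79.3 and peaks near tRNA genes one of 79.8. Among the 25 highest nuclear peaks away from tRNA genes 13 were in divergent promoters, and among the 100 highest 48 were. All nuclear peaks away from tRNA genes comprised 448 in divergent promoters, 600 in one-direction promoters and 381 away from coding promoters. Within the divergent group the median was between 92.9 and 110 over 5 classes of distance between the 5' ends, and between 95.04 and 104.1 over 4 classes of distance to the nearer 5' end.

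A summit in windows of both strands can only belong to 5' ends that lie near it, so the distances below are limited by the rule, and the rule favours summits between the 5' ends. The 5' ends of the pair were a median of 519 bp apart, with quartiles of 320 and 760 bp and a range from an overlap of 15 bp, written -15, to 1919 bp. Adjacent head-to-head pairs of the whole genome, up to 2000 bp apart, had a median of 678 bp, but these pairs were not limited by a window around a summit and the medians are not on the same footing. With a window of 500 bp the median between the 5' ends of the peaks was 410 bp. The summit fell between both 5' ends in 420 of 448 peaks (93.8%, 91.1 to 95.6%), downstream of the plus-strand 5' end in 14 and downstream of the minus-strand 5' end in 14. The nearer 5' end was a median of 159 bp away and the farther one 345.5 bp, and 325 peaks (72.5%) had both within 500 bp. The closest pairs were rec-1/pif-1, whose 5' ends overlap by 15 bp, F32D8.14/F32D8.5 at 12 bp and F25H9.6/F25H9.7 at 15 bp. The farthest were cnx-1/panl-3 at 1919 bp, where cnx-1 encodes the endoplasmic reticulum chaperone calnexin, egrh-2/lep-2 at 1831 bp and taf-11.3/sly-1 at 1808 bp. At cnx-1/panl-3 the summit was almost in the middle, 963 and 956 bp from the 5' ends.

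The nearer 5' end was that of the plus-strand gene in 249 peaks (55.6%, 50.95 to 60.1%) and of the minus-strand gene in 199. By the matched summits of replicate 1 the plus-strand gene was the nearer in 54.9%, and by those of replicate 2 in 53.4%. The median offset of the summit from the middle of the gap was 15.3 bp towards the plus-strand gene in the IDR list, 16.5 bp in replicate 1 and 8.25 bp in replicate 2, small against quartiles of -71.9 and 89.1 bp. A summit offset from a caller is given to a single base, and its own error is not in the lists. Both replicates named the same nearer gene in 396 of 446 peaks (88.8%, 85.5 to 91.4%), and in 274 of 283 (96.8%) where the 2 distances differed by over 100 bp. Each replicate summit was the one nearest the IDR summit, a median of 11 bp away in replicate 1 and 4 bp in replicate 2. This agreement thus follows in part from the matching and gives no independent support. The summit lay in the third of the gap around its middle in 204 of 420 peaks (48.6%, 43.8 to 53.3%). It was within 100 bp of the nearer 5' end in 145 peaks.

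**Figure D2:**
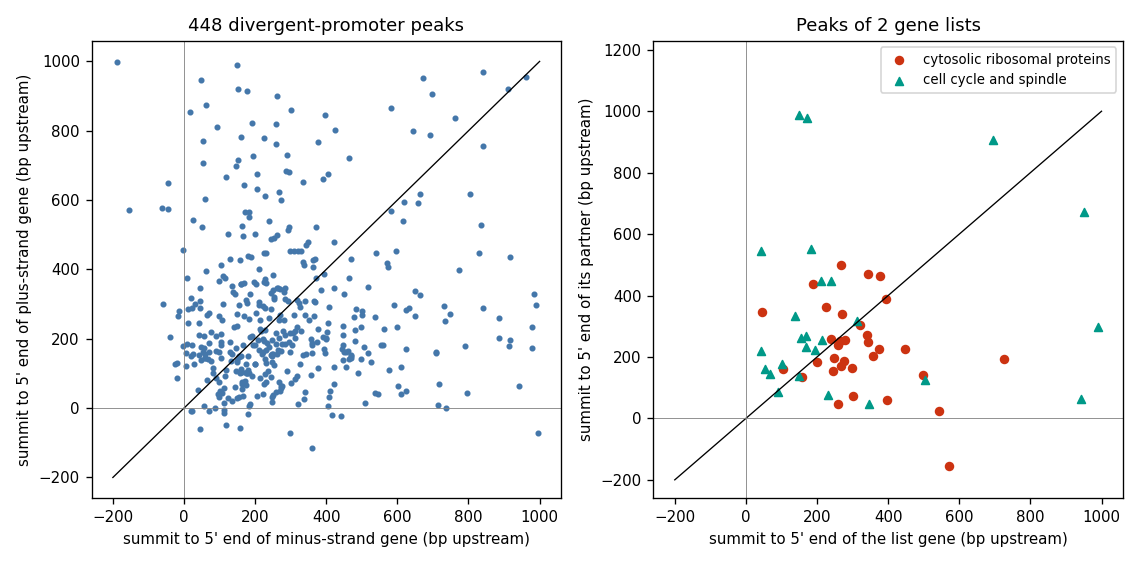
Left, distance from the summit to the 5' end of the minus-strand gene (horizontal axis, bp) and of the plus-strand gene (vertical axis, bp) for 448 peaks, with equal distances on the line and values below 0 inside the gene. Right, the same for peaks of cytosolic ribosomal protein genes (circles) and of cell cycle and spindle genes (triangles), with the list gene on the horizontal axis; 24 of the 33 circles lie below the line, farther from the ribosomal protein gene than from its partner.

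The 448 peaks belonged to 437 pairs, since 11 pairs held 2 peaks each. In 9 of the 11, one peak was nearer each gene. Between ecps-1 and atx-2, the worm ataxin-2, an RNA-binding protein of the germline, 1 summit stood 206 bp from ecps-1 with a signal of 84.6 in replicate 1, 118.3 in replicate 2 and 203.4 in the IDR list. The other stood 43 bp from atx-2, 589 bp farther along, with 69.6, 109.1 and 176.5. Both peaks of this pair were thus well above the median of the group in both replicates. Between W03C9.5 and mex-1, a zinc finger protein of the early embryo, the summits stood 735 bp apart, 178 bp from W03C9.5 and 180 bp from mex-1, with 163.2 and 143.7 in the IDR list. In 8 of the 11 pairs the summits were only 199 to 213 bp apart, as at F29B9.11/jmjd-1.2 and acdh-13/mesp-1. At F56B3.11/ech-5, the nearest replicate 1 summit was the same for both peaks. Peak width was 420 bp in 353 of the 448 peaks, the greatest width among them, so that the width of a peak was not used as a measure.

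Intergenic DNA held 378 of the 448 summits (84.4%), 5' UTRs held 26, coding exons 2 and other parts of coding genes 6. No summit fell in a 3' UTR, against 13 of 600 in one-direction promoters. This contrast follows at least in part from the rule, which favours summits between 2 opposed 5' ends. A noncoding gene covered 36 summits outside coding genes (8.04%, 5.86 to 10.9%), against 17 of 600 (2.83%, 1.78 to 4.49%) in one-direction promoters. Summits within a coding gene were assigned there first, so noncoding genes that overlap coding genes are not in these counts. The part of this order in the contrast was not tested. Most of the noncoding genes near these peaks were of the annotation's general ncRNA class, found within 500 bp of 53 summits (11.8%, 9.16 to 15.2%), against 8.67% (6.67 to 11.2%) of one-direction summits. A piRNA gene lay within 500 bp of 10 summits (2.23%, against 1.17%), a snoRNA gene of 9 (2.01%, against 4.33%), a small nuclear RNA gene of 4 (0.893%, against 1.83%) and a microRNA gene of 4 (0.893%, against 0.333%). The intervals of both classes overlapped for each of these kinds. The snoRNA gene F39B2.14 lay 122 bp from the summit between tmem-107 and rps-26, and F54E7.10 lay 237 bp from the one between ska-3, a kinetochore protein gene, and rps-12. With 3 or more transcription units in reach, the peak cannot be assigned to one of them from its position.

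Set against the genome, 457 of 2560 adjacent head-to-head pairs up to 2000 bp apart held an IDR summit between their 5' ends, or 17.9% (16.4 to 19.4%). All 1648 nuclear peaks were counted here, including those near tRNA genes and others that did not meet the rule for divergent promoters. The lists of replicate 1 and replicate 2 alone gave 15.9% and 17.7%. A further 582 pairs held a summit of the relaxed pooled list only. The share rose from 5.56% of pairs up to 100 bp apart to 25.7% of those 301 to 400 bp apart, and fell to 10.4% of those 1501 to 2000 bp apart. The lowest class rests on 3 of 54 pairs. A summit just outside the gap was not counted, which limits the shares of short gaps most. The summits at F32D8.14/F32D8.5, 12 bp apart, and F25H9.6/F25H9.7, 15 bp apart, were left out in this way. Chromosome III had the highest share, 28.8%, followed by I with 24.5%, IV with 19.5%, II with 17.0% and V with 10.6%. On the X chromosome 6 of 178 pairs (3.37%, 1.55 to 7.16%) held a summit, and its pairs were wider, with a median of 1134 bp. The only divergent-promoter peak on X lay between C27C12.1 and C27C12.4, with 35.0 in replicate 1, 37.7 in replicate 2 and 74.3 in the IDR list.

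**Figure D3:**
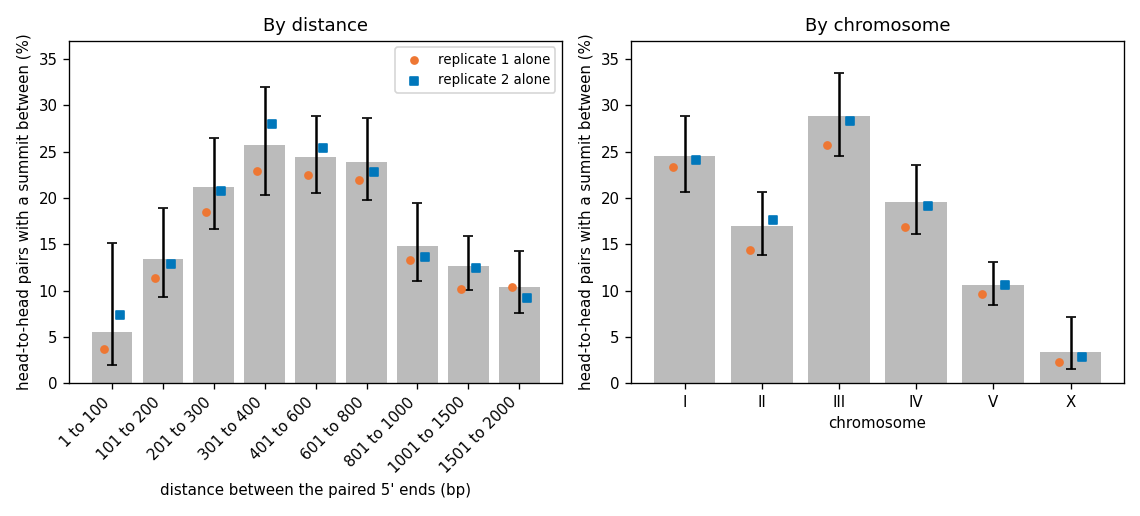
Share of adjacent head-to-head gene pairs with an IDR summit between their 5' ends (vertical axis, percent), by the distance between the 5' ends in bp (left) and by chromosome (right). Bars are the IDR list with 95% Wilson intervals, circles replicate 1 alone and squares replicate 2 alone. All nuclear peaks were counted, including those near tRNA genes. The share is highest at 301 to 400 bp, 25.7%, and lowest on X, 3.37%, among the classes of each panel. Summits just outside a gap were not counted, which limits the shares of short gaps most.

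The peaks touched 908 of 19973 protein-coding genes, a background of 4.55%. Among the 5120 genes of adjacent head-to-head pairs the background was 17.0%. The group tables used next were lists of gene names written with earlier results of these data known, so their shares describe the genes and were not tested. Of 22 lists, 16 had a higher share than the background of head-to-head genes.

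Cytosolic ribosomal protein genes had the highest share. A divergent-promoter peak stood in the window of 33 of 81 of them (40.7%), and of 33 of the 48 that stand head to head with another gene (68.8%, 54.7 to 80.1%). The peak was closer to the partner gene than to the ribosomal protein gene in 24 of the 33 (72.7%, 55.8 to 84.9%). By the summits of replicate 1 it was 22 of the 33, which takes in a tie at sna-3/rps-3. By those of replicate 2 it was 23. In rps-10/rpl-24.1 and rpl-39/rps-30 both genes are on the list, so each pair gives 1 nearer and 1 farther gene by construction. The summit stood a median of 280 bp upstream of the ribosomal protein 5' end, with quartiles of 248 and 373 bp, and 225 bp upstream of the partner. Of the listed genes rpl-12 alone had a summit within 100 bp of its 5' end, at 46 bp. The list took names by pattern and left out rpl-7A and rpl-36.A, which the counts above do not hold. Both had a peak. The summit stood 366 bp upstream of rpl-36.A. At rpl-7A/set-21 it stood 90 bp upstream of rpl-7A, the nearer gene in both replicates.

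The partners of the ribosomal protein genes were of many kinds. The rpl-12 summit lay 347 bp from lin-54, a DNA-binding protein of the DREAM complex, and gave 70.0 in replicate 1, 120.7 in replicate 2 and 190.4 in the IDR list. Between rps-19 and hsr-9, which encodes a BRCT domain protein of the DNA damage response, it gave 94.7, 103.5 and 197.7, with 248 and 197 bp to the 5' ends. Between rps-20 and ekl-4 it gave 75.4, 112.5 and 186.9, with 244 and 153 bp. In both of these pairs the partner was the nearer gene in each replicate. At ifet-1/rps-1, where ifet-1 encodes a translational repressor of the germline, the values were 58.0, 113.8 and 169.7, and here the ribosomal protein gene was the nearer, at 268 against 500 bp. At ify-1/rpl-22, where ify-1 encodes securin, the inhibitor of separase, they were 55.4, 78.4 and 134.8.

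In genes of the cell cycle and the spindle the list gene was more often the nearer one, although the difference from the ribosomal protein genes was not tested. A peak stood in the windows of 26 of 99 genes, and of 25 of 49 that stand head to head (51.02%, 37.5 to 64.4%). The list gene was the farther one in 8 of 26 (30.8%, 16.5 to 49.99%), in 10 by replicate 1 and in 7 by replicate 2. The median distance was 177.5 bp to the list gene and 258 bp to the partner. The peaks had a median signal of 131.7 in the IDR list, against 105.5 for the ribosomal protein genes and 99.6 over all members. Higher medians were found for chromatin regulators, at 138.6, and for RNA regulation in the germline and early embryo, at 152.3. Neither the lean of the ribosomal protein genes nor that of the cell cycle genes was particular to its list. The list gene was also the farther one in 8 of 11 cases for nuclear pore and transport, 12 of 18 for chaperones and 8 of 12 for chromatin regulators. It was the farther one in only 3 of 10 for meiosis and 8 of 19 for membrane trafficking. At F59E12.17/zyg-1, where zyg-1 encodes the kinase of centriole duplication, the values were 71.7 in replicate 1, 88.7 in replicate 2 and 160.1 in the IDR list, with the summit nearer zyg-1 in both replicates. At lin-53/nra-2, where lin-53 encodes a histone-binding protein of the RbAp48 family, they were 58.1, 126.4 and 184.2. At cogc-2/klp-18, where klp-18 encodes a kinesin of the meiotic spindle, the summit was 318 and 313 bp from the 5' ends, and the replicates named different nearer genes.

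Splicing genes had a peak in 16 of 26 head-to-head cases (61.5%), among them snx-13/snr-1 with 59.7 in replicate 1, 105.1 in replicate 2 and 165.6 in the IDR list, where snr-1 encodes an Sm protein of the spliceosome. Pairs in which both genes belong to the same list were rare. They numbered 4, and besides the 2 ribosomal ones they were rsp-2/rsp-1, both SR proteins, and snr-3/rsp-5. In 28 peaks both genes of the pair were on some list, in 185 one gene was, and in 235 none was.

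Further lists, of nuclear, cytoplasmic, mitochondrial and germline functions, also stood above the background of head-to-head genes. Genes of RNA regulation in the germline and early embryo had a peak in 11 of 20 head-to-head cases, DNA replication and repair in 13 of 26, chaperones in 17 of 35, chromatin regulators in 11 of 24 and meiosis in 10 of 24. Respiratory chain genes had one in 15 of 34, translation factors and tRNA synthetases in 15 of 39, membrane trafficking genes in 19 of 53, proteasome subunits in 7 of 22 and mitochondrial ribosomal proteins in 7 of 27. At npp-3/top-2, a nucleoporin and topoisomerase II, the signal was 72.9 in replicate 1, 134.7 in replicate 2 and 211.7 in the IDR list. At R53.4/psf-1, where psf-1 encodes a subunit of the GINS replication complex, it was 88.2, 130.0 and 219.2. At dvc-1/ima-1, where ima-1 encodes an importin alpha, it was 88.1, 131.9 and 223.4. These 3 peaks were close to one another in replicate 2, while npp-3/top-2 was the lowest in replicate 1. At H27M09.5/syp-4, where syp-4 encodes a central protein of the synaptonemal complex, it was 82.9, 111.8 and 196.6. At fib-1/mut-15, fibrillarin beside a mutator protein of small RNA amplification, it was 63.4, 132.0 and 195.6, and at hrde-1/C16C10.13, where hrde-1 encodes a nuclear Argonaute of heritable silencing, 55.5, 109.4 and 165.2.

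The peak between rec-8, the meiotic cohesin kleisin, and mex-5 gave 72.4 in replicate 1, 97.4 in replicate 2 and 168.7 in the IDR list. Its summit was 245 bp from rec-8 and 285 bp from mex-5. The inserted mex-5 promoter is the same DNA, and fragments of the native locus and of the insertion cannot be told apart there.

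The lists at the low end were those of tissue-specific and sensory genes. Of 102 genes in lists for body wall muscle, intestine, neurons and hypodermis, 0 had a divergent-promoter peak, which allows a share of up to 2.94%. Only 17 of these 102 stand head to head with another gene, and 0 of 17 allows up to 17.6%, a limit no lower than the background. Chemoreceptor genes had a peak in 5 of 282 head-to-head cases (1.77%) and nuclear hormone receptor genes in 3 of 44 (6.82%). In the highest chemoreceptor case, B0495.9/sre-1, the summit lay 47 bp from B0495.9 and 947 bp from sre-1, with 50.02 in replicate 1, 48.5 in replicate 2 and 101.7 in the IDR list.

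**Figure D4:**
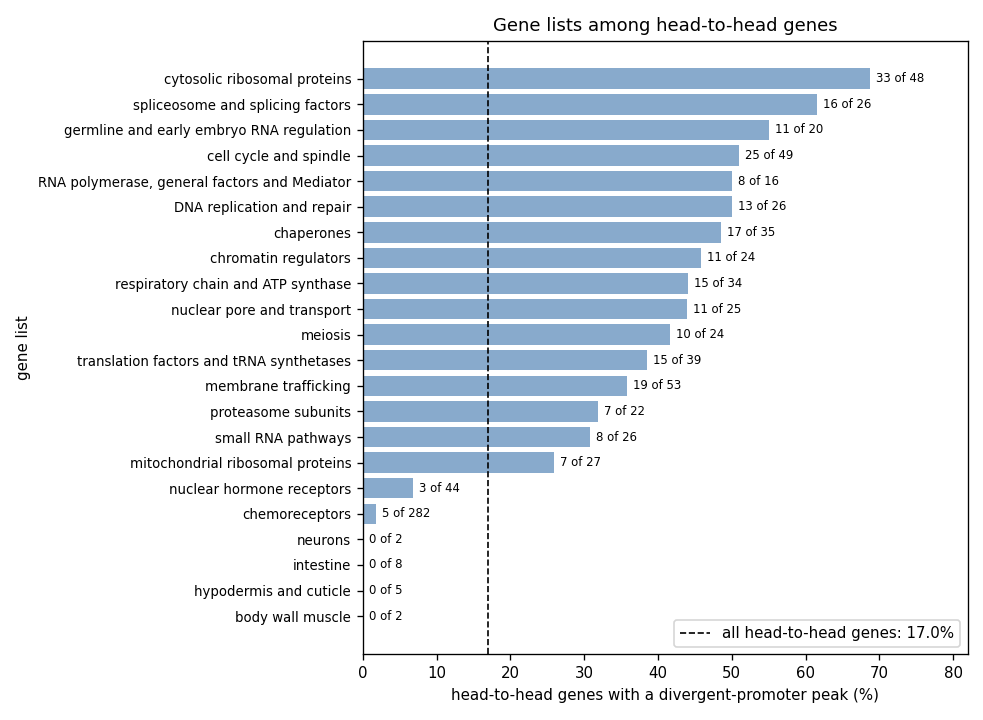
Share of the head-to-head genes of each list that had a divergent-promoter peak in their promoter window (horizontal axis, percent), with the counts beside each bar and the share over all head-to-head genes, 17.0%, as the dashed line. Cytosolic ribosomal protein genes stand highest, at 33 of 48, and the 4 tissue lists at 0.

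The DNA at the summits was richer in G and C than its surroundings. Up to 50 bp to each side of the summit the mean G+C content was 45.1% ± 8.05 (SD, n = 448 peaks), 44.3% in one-direction promoters and 33.9% at the midpoints of 2103 head-to-head pairs without an IDR summit. In windows of 21 bp it reached 48.97% at the summit, fell to 30.9% at 100 bp to the left and 30.6% at 100 bp to the right, and was 38.7% and 39.0% at 500 bp. Base composition can affect the recovery and mapping of reads, and the part it played in the peaks was not tested.

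**Figure D5:**
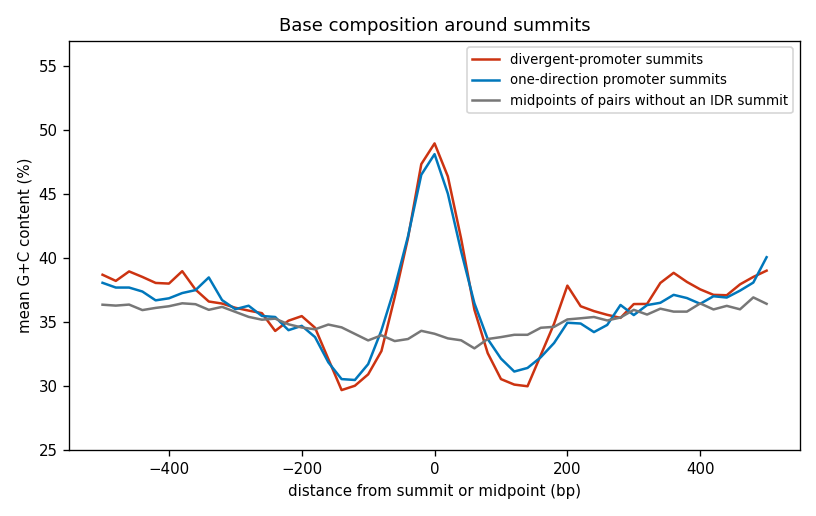
Mean G+C content in percent (vertical axis) of 21-bp windows placed from 500 bp left to 500 bp right of the summit (horizontal axis, bp), for divergent-promoter peaks, one-direction promoter peaks and midpoints of head-to-head pairs without an IDR summit. The summits of both promoter classes form a peak of 48.97% and 48.13% between 2 dips, while the midpoints stay between 32.96% and 36.94%.

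The word GTAAACA and its variants with A for the first base (ATAAACA) or T for the next to last (GTAAATA) were searched on both strands in the DNA up to 50 bp to each side of the summit, and at least 1 was found in 26 of 448 peaks (5.80%, 3.99 to 8.37%). The share was 4.50% in one-direction promoters and 7.42% (6.37 to 8.62%) at the midpoints of the pairs without an IDR summit, which have fewer G and C. With 100 bp searched to each side the shares were 13.2% (10.3 to 16.6%), 12.2% and 14.2% (12.7 to 15.7%) in the same order. Of head-to-head pairs that held a forkhead word anywhere between their 5' ends 16.9% had an IDR summit, against 18.6% of those without one, but the pairs with a word were longer, with a median of 956 bp against 518 bp and the part of length in this was not tested. The DNA around the word is shown for 8 peaks of high signal because the factor belongs to this family, with the word in capitals on the plus strand.
K09H11.9/rga-3: ggtgtataaattGTAAACAtccaccgtagt
mlcd-1/idhg-1: aaaatggacaaaATAAACAtaaaagacgaa
tmem-131/smcr-8: ctggttttccgaTGTTTACactgctggaag
ani-2/clec-88: tttaactacaatTGTTTATtaaactggaaa
T05A12.3/T05A12.4: gctggccgagaaTGTTTATggccgacgacc
sna-2/T13F2.6: ccgtactcctgtTGTTTACcatttagtgca
hda-6/F41H10.4: tgttttgcatttTGTTTATgtttttttgtt
pycr-4/rod-1: cgaatttctctaTATTTACacgaatcttaa
These lie at chrV:5717412-5717441 for K09H11.9/rga-3, chrIII:4568682-4568711 for mlcd-1/idhg-1, chrIII:4999092-4999121 for tmem-131/smcr-8, chrII:6365442-6365471 for ani-2/clec-88, chrIV:6887884-6887913 for T05A12.3/T05A12.4, chrIV:9778191-9778220 for sna-2/T13F2.6, chrIV:5364372-5364401 for hda-6/F41H10.4 and chrIV:7477933-7477962 for pycr-4/rod-1. The highest of them, K09H11.9/rga-3, had its word 13 bp left of the summit and a signal of 81.5 in replicate 1, 162.9 in replicate 2 and 245.3 in the IDR list. A match is a string of letters and not a measured site.

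The other words looked for on both strands differed in share between summits and midpoints, and the part of base composition in this was not tested. TATAAA, which can overlap ATAAACA, was found at 4.69% of the summits, 7.0% of one-direction summits and 14.3% of the midpoints. TTTTTTT was found at 13.4%, 14.3% and 23.7%. CTGCGTC was found at 5.80%, 7.0% and 1.14%, GAGAGAG at 4.69%, 5.50% and 1.90%, GGGCGGG at 2.46%, 2.17% and 0.904%, and the E2F-like TTCCCGC at 2.90%, 5.50% and 1.24%. The words with more A and T were thus rarer at summits than at midpoints, and those with more G and C more common.

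A few longer strings recurred at the summits. The word CTAGGCC, the word AGGAGTA and the word CGAGACC were picked after all words of 7 bases had been ranked by how much more often they occur at these summits than at the midpoints, so their excess over the midpoints is a description of that choice. They are not the leading words of that ranking, in which they stood at ranks 2, 12 and 14. The word CGTGGCC, in 36 peaks, stood first, and ACCGTAC, in 46 peaks, also stood above the latter 2 of the 3 words. The 3 were chosen after these values were seen. At least 1 of the 3 was found in 123 of 448 peaks (27.5%, 23.5 to 31.8%), in 22.3% of one-direction summits (19.2 to 25.8%), in 9.45% of summits away from coding promoters, in 5.48% near tRNA genes and in 2.57% of the midpoints. The intervals of both promoter classes overlap. They are shown for some of the highest peaks, with the word in capitals as it reads on the plus strand, because neighbouring bases recur with them. CTAGGCC, or GGCCTAG on the other strand, was held by these peaks.
rps-23/dpm-3: cgccacggccatGGCCTAGaaaacaacgta
cux-7/C07H6.2: tgaatttggattCTAGGCCatgcagtcttt
ahsa-1/C01G10.7: aaatggaagaaaCTAGGCCagcaggccacg
F09E5.11/bmy-1: gcggtgcgatttCTAGGCCagcagggctct
C56A3.6/cav-2: aggcggagttttCTAGGCCaccactcaaga
F25H9.6/F25H9.7: tgtgtgcgttttCTAGGCCattttggcgtg
lron-10/hpr-9: tccgcagcgcatGGCCTAGcgacgggggat
cyn-4/copz-1: ctacacgaaaacCTAGGCCggcggccgcca
AGGAGTA, or TACTCCT, was held by these peaks.
mib-1/smc-3: tccttgtccgagAGGAGTAcacaccgggtg
C01G10.10/C01G10.9: caattgtctaggAGGAGTAcacggttgtcg
coa-3/F35D11.4: gctacttccaagAGGAGTAcacacgaggtg
tpp-2/rbbp-5: tagtttccctggAGGAGTAcacggccgagc
gna-1/B0024.13: ctctcggccatgTACTCCTctcggacaaac
F26F4.9/cee-1: gtcttgtccgagAGGAGTAcacgacattcg
CGAGACC, or GGTCTCG, was held by these peaks.
R53.4/psf-1: ggctaatcgctgCGAGACCcatggccgtgg
npp-3/top-2: gcgcgttcgctgCGAGACCcgacgctctta
fib-1/mut-15: tggcaatcgctgCGAGACCtgcacagtgga
cyn-4/copz-1: ccagccacctcgGGTCTCGccacgatcaca
cogc-2/klp-18: taaacgtatttcGGTCTCGtagcgaacgcg
W03C9.5/mex-1: gcgcacttgtgaCGAGACCacgggaattat
CTAGGCC was found in 39 peaks, AGGAGTA in 33 and CGAGACC in 65, and the CGAGACC of cyn-4/copz-1 lies beside a CTAGGCC of the same peak.

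Read in the direction of the word, the base after CTAGGCC was A in 76.9% of its 39 peaks. Before AGGAGTA stood G in 90.9% of 33 peaks and after it C in 93.9%. CGAGACC was preceded by T, C and G at the sixth, the fifth and the fourth base before it in 81.5%, 92.3% and 86.2% of 65 peaks. The strings therefore extend beyond the 7 bases searched. The 3 words occur 8274, 8565 and 10956 times in the nuclear genome, so a word alone does not mark a peak.

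CTAGGCC went with high signal. It was found in 8 of the 25 highest peaks (32.0%) against 8.71% of all 448. Among the 50 highest it was found in only 9, and among the 100 highest in 19. The share with these wider cuts was lower than at the 25 highest, though still above that of all 448. The 39 peaks that held it had a median signal of 58.6 in replicate 1, 88.7 in replicate 2 and 147.5 in the IDR list, and the 409 without it 39.1, 59.4 and 96.1. The order was the same in both replicates, while the quartiles in the IDR list, 107 to 173 and 75.01 to 139.7, overlapped. Mean G+C content was 45.6% in the holders and 45.1% in the others. The peaks with AGGAGTA had a median of 114.5 against 98.8, and those with CGAGACC one of 90.9 against 103.3. Among the holders of CTAGGCC were F09E5.11/bmy-1, with 91.8 in replicate 1, 185.0 in replicate 2 and 278.3 in the IDR list, and C56A3.6/cav-2, where cav-2 encodes a caveolin, with 113.6, 153.0 and 266.3. At cux-7/C07H6.2, with 109.3, 188.6 and 298.0, the word began 6 bp right of the summit.

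Of the 135 head-to-head pairs that held CTAGGCC anywhere between their 5' ends, 58 (43.0%, 34.9 to 51.4%) had an IDR summit, against 16.5% of the 2425 pairs without it. The lists of the replicates alone gave 40% and 40.7% for the pairs with the word and 14.6% and 16.4% for the others. For CGAGACC the shares were 37.8% and 15.4% and for AGGAGTA 31.3% and 17.0%, all beside the background of 17.9% for head-to-head pairs. Pairs that held a word were longer, with a median of 820 bp against 667 bp for CTAGGCC, and the part of this difference was not tested. The words were chosen on the peaks counted here, so these shares give no independent support to them.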

How the data were processed

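ChIP-seq peaks of UNC-130 fused to GFP in L4 larvae were deposited as 8 narrowPeak lists, of which the 4 on ce11 were used and the 4 on ce10 were not. The signal value (column 7) and the summit offset (column 10) are the authors' own, as deposited. The IDR threshold, the peak caller, the aligner and the scale of the signal are not stated in the labels or listings. Per the deposited text listings, peaks were called on each replicate and on pooled reads against 1 shared control, and the IDR list was derived from these relaxed lists. The lists held 1667 IDR peaks, 19 of them mitochondrial and left out, and 19058, 18463 and 16959 relaxed entries for replicate 1, replicate 2 and pooled reads. The number of value columns without a sample was 0. Depth is unknown.

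Genes and their 5' ends came from Ensembl release 115 for WBcel235 (19973 protein-coding and 612 tRNA genes) and sequence from RefSeq. Each peak was paired with the plus- and the minus-strand gene whose 5' ends lay nearest. A head-to-head pair is a minus- and a plus-strand gene with adjacent 5' ends up to 2000 bp apart. Replicate values are those of the nearest summit within 200 bp. Words were searched within 50 bp of summits on both strands. Intervals are Wilson intervals at 95%. With 1 group of 2 replicates nothing was tested, and p-values were not computed. Whether the biological replicates were separate cultures is not stated.

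The members, gene lists and words were chosen with earlier results of these data known. Pairs named with values were the 25 highest peaks, up to 4 further genes of each of 22 lists, up to 10 pairs with both genes on a list, and the extremes of signal and distance; the pairs with 2 peaks, the peak on X, noncoding neighbours and same-list pairs were named after their values were seen. Alternatives were another window, tRNA distance and 5' ends, each replicate alone, and the upper part of the list. Python 3.11.15, numpy 2.4.6, pandas 2.3.3 and matplotlib 3.10.9 were used, and the assignment of peaks was tested on simulated data.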

Additional observations from a re-analysis of the deposited data

How the results depend on the processing

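Of 81 alternative values, 52 stayed within the spread between replicates, or within 1.5 times for counts, and 29 moved beyond it. For the share with the same nearer gene, the limit was its Wilson interval instead. The tRNA settings could not change the share of head-to-head pairs, which used all nuclear peaks. Divergent-promoter peaks kept a higher median signal than one-direction peaks in each alternative. The share of nuclear peaks was 24.62 to 27.34% with each replicate alone, the share with the summit between both 5' ends 91.6 to 94.0%, the median distance between 5' ends 516.5 to 519.0 bp, that to the nearer 5' end 152.0 to 160.5 bp, the signal ratio 1.173 to 1.184, the share of head-to-head pairs with a summit 15.94 to 17.7%, the forkhead share 5.926 to 6.444% and the recurrent-word share 23.95 to 26.0%.

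With a window of 500 bp fewer genes are in reach, and the share of nuclear peaks was 19.72% and the distances 410 and 140 bp. The signal ratio there was 1.146 and the forkhead share 4.923%, and the cause of these was not tested. With the highest-signal entries only, a list that holds fewer peaks, 279 peaks and 571 genes were left, the share was 34.23%, the distance between 5' ends 499.0 bp, the ratio 1.067, the head-to-head share 11.05% and the forkhead share 7.168%. Without the tRNA rule the distance was 522.0 bp and the ratio 1.162, and with the 5' ends of all transcripts the ratio was 1.145. Searching 100 bp to each side gave 13.17% for forkhead and 33.26% for recurrent words, pairs up to 1000 bp apart 20.69%, and matching replicates within 50 bp the same nearer gene in 92.08%. The recurrent-word and autosome alternatives were chosen after seeing the data.

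No paired analysis was possible because the study has 1 group only. The lists hold no read counts, both replicates share 1 control, and lower peaks sit at the edge of an unstated IDR threshold, so a pair without a peak is one without a call at this depth.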
